A study of Mus musculus with 6 samples.

Results

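The genes described here encode the nuclear-encoded subunits of respiratory complexes II to V, the part of the mitochondrial electron transport chain after complex I together with the ATP synthase. They were taken by symbol: Sdha to Sdhd, every symbol starting with Uqcr, Cyc1, symbols starting with Cox4 to Cox8, and symbols starting with Atp5. The rule found 49 of the 22556 genes in the table. Of these, 45 encode subunits (4 of complex II, 9 of complex III, 17 of complex IV and 15 of complex V), and 4 share the symbol but encode no subunit.

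RNA was sequenced from hearts of wild-type mice given no angiotensin II (control, day 0) or 1000 ng/kg/min of angiotensin II under the skin from an ALZET osmotic minipump for 7 days or 28 days. Angiotensin II is the peptide of the renin-angiotensin system that constricts vessels, raises blood pressure and, infused over days, is widely used to provoke hypertrophy and fibrosis of the heart. Each of the 3 groups had 2 libraries of heart RNA, 6 in all. The labels give neither the age, sex and strain of the mice nor what the control mice carried, and they do not say whether the 2 libraries of a group came from separate animals, so p-values measure the spread between these libraries, which may be technical. Levels are RPKM, a read number divided by gene length and by library size, so that genes can be compared per length. Differences are of log2(RPKM + 0.5), tested with limma across the 11096 genes with a mean of at least 1 RPKM and called at an adjusted p of 0.05. Such a difference slightly understates the change of genes near the low end.

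Complex II (succinate dehydrogenase) oxidises succinate in the citric acid cycle and passes electrons to ubiquinone. Complex III (the cytochrome bc1 complex) passes them from ubiquinol to cytochrome c, and complex IV (cytochrome c oxidase) passes them to oxygen. Complexes III and IV pump protons, and complex V (ATP synthase) uses the proton gradient to make ATP. Cardiomyocytes are densely packed with mitochondria and depend on this pathway for contraction. Several subunits of complex IV come in tissue isoforms, with heart and skeletal muscle making a heart-type protein where most other tissues make a liver-type protein. Complexes III, IV and V also hold subunits encoded in mitochondrial DNA. Those were not analysed here, so every value below concerns nuclear genes only.

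The labelled tissue matched its defining markers: Myh6, the adult ventricular myosin heavy chain, ranged from 4163 to 5707 RPKM and Tnnt2, cardiac troponin T, from 5844 to 7292 RPKM. Of the 49 genes, 47 passed the filter on low values, 43 of them subunits. The 2 that did not are testis isoforms of complex IV subunits: Cox7b2 ranged from 0.0122 to 0.223 RPKM, and Cox8c was listed at 0 in all 6 libraries. In bulk heart RNA, fewer cells of a type and less RNA per cell cannot be told apart. The control libraries stood apart in atrial markers, whose summed level was 320 RPKM in control replicate 1 and 3017 RPKM in control replicate 2. In the other libraries it was 2038 to 3427 RPKM. Most of that sum was Nppa, at 215 and 1605 RPKM in the controls, 1932 and 2084 at 7 days, and 1648 and 3040 at 28 days. The atrial marker Myl7 was at 52.5 and 646 RPKM in the controls, 41.2 and 66.2 at 7 days, and 341 and 182 at 28 days. Like Myl7, the markers Myl4 and Sln were highest in control replicate 2. The respiratory subunits of the controls differed by a median of only -0.02 on the log2 scale, and values without either control are given where they change a call.

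The subunits were among the most abundant messages of these hearts. The mean over the 6 libraries reached at least 100 RPKM for 41 of the 43 tested subunits, and the median of those means was 555 RPKM. By complex, the median of the members' mean levels was 420.1 RPKM for complex II, 555 for complex III, 504 for complex IV and 767 for complex V. The highest single level was that of Cox7a1 in complex IV, with a mean of 2687 RPKM, and the next highest was that of Atp5b, the catalytic beta subunit of ATP synthase, with 2356 RPKM. The lowest tested member was Cox6b2, a testis isoform, with 2.84 RPKM.

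**Figure D1:**
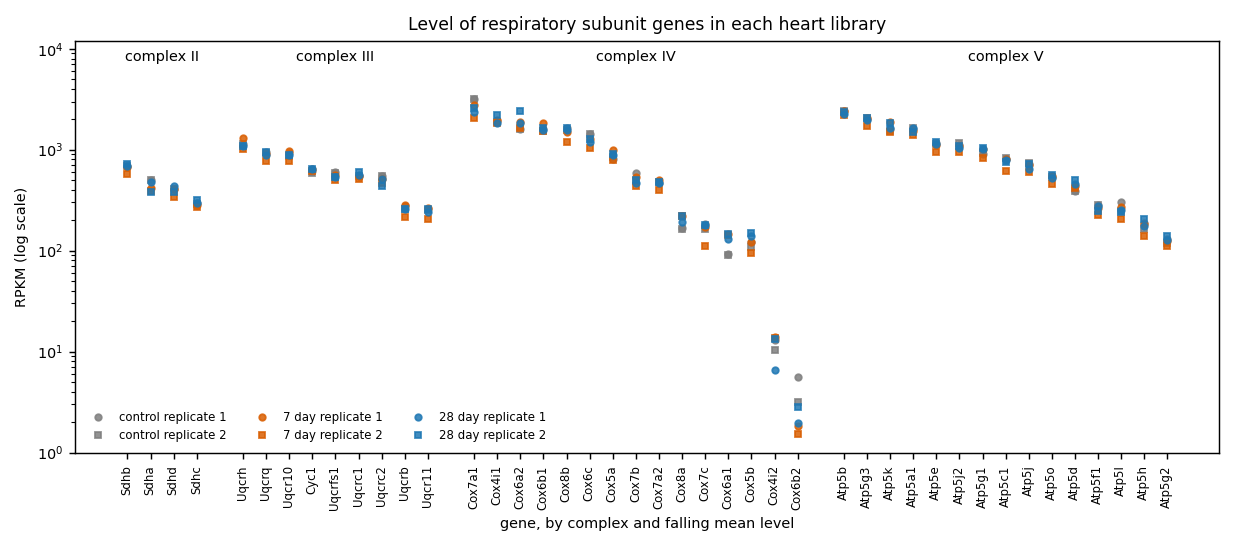
RPKM on a log scale of the 43 tested subunits, by complex and falling mean, with 1 point for each of the 6 libraries (circles replicate 1, squares replicate 2). The points of most genes lie close together, and 41 subunits have a mean of at least 100 RPKM.

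After 7 days of angiotensin II most respiratory subunits differed little from control, and the few that passed the test were all in complex IV. Cox6a1 and Cox8a, liver-type isoforms of cytochrome c oxidase subunits 6a and 8, rose, and Cox6b2 fell. Thus 2 of the 47 tested genes rose, where 13.2% of all tested genes did, and 1 fell, where 2.27% of all tested genes did. Before adjustment, p was under 0.05 for 3 genes above control and for 4 below it. With libraries rescaled by median ratios or quantile normalized, the share of all calls that were higher went from 85.3% to 63.1% or 57%.

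The complexes stood at like distances from control. The median log2 difference between 7 days and control was -0.14 for complex II, -0.10 for complex III, -0.10 for complex IV and -0.15 for complex V. It was -0.14 for the 37 tested genes called complex I subunits here. Those were taken by symbol (Ndufa, Ndufb, Ndufc, Ndufs and Ndufv, without Ndufaf). They include Ndufa4 and Ndufa4l2, whose symbols need not mean a place in complex I. Over all tested genes the median was 0.14, and over the 401 other genes with a mean of at least 100 RPKM it was 0.05. Relative to all tested genes, the median over the 43 subunits was -0.24. Rescaling the libraries by median ratios shifted the median of all genes from 0.14 to -0.01. Counting libraries, 5 of the 43 subunits had both 7 day values above both controls, where 48.6% of all tested genes did, and 18 had both below, where 16.1% did. The 18 were 3 of 4 in complex II, 4 of 9 in complex III, 4 of 15 in complex IV and 7 of 15 in complex V.

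In RPKM as given, this lower level at 7 days came mainly from 1 library. The median log2 distance from the control mean was 0.01 over the 43 subunits in 7 day replicate 1 and -0.24 in 7 day replicate 2. Over all tested genes it was 0.15 and 0.13, so relative to them the subunits were lower in both libraries. The 49 genes summed to 10.8% and 10.3% of the RPKM of tested genes in the controls, and to 6.74% and 7.07% at 7 days. The RPKM sum of tested genes was 331979 and 345943 in the controls, and 539979 and 434025 at 7 days. The 49 genes themselves summed to 35900 and 35542 RPKM in the controls, and to 36410 and 30704.5 at 7 days. Their share thus fell in replicate 1 although their sum did not. The 401 other genes with a mean of at least 100 RPKM summed to 174564 and 186853 in the controls, and to 363580 and 266027 at 7 days. Their median distance from the control mean was only 0.13 and -0.04 at 7 days. By complex, replicates 1 and 2 stood at -0.04 and -0.27 for complex II, at 0.03 and -0.24 for complex III, at 0.07 and -0.27 for complex IV, and at -0.02 and -0.24 for complex V. Without 7 day replicate 2 the medians of complexes III and IV were therefore above 0. Replicate 2 was below replicate 1 for 43 of 43 subunits, by a median of -0.24 (SD over genes 0.13). Between the control libraries the same median was -0.02 and between the 28 day libraries 0.07.

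Other genes also differed between the 7 day libraries. Complex I subunits were lower in replicate 2 for 36 of 37 genes, by a median of -0.28. The other genes with a mean of at least 100 RPKM were lower for 316 of 401, by -0.16, while the median over all tested genes was -0.01. Cardiomyocyte markers stood at 0.11 in replicate 1 and -0.11 in replicate 2, relative to the control mean, and their summed level was 63244 and 52048 RPKM, against 55996 to 56869 in the controls and 62682 to 65949 at 28 days. The part of cell makeup or library preparation in the difference between the 7 day libraries was not tested.

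**Figure D2:**
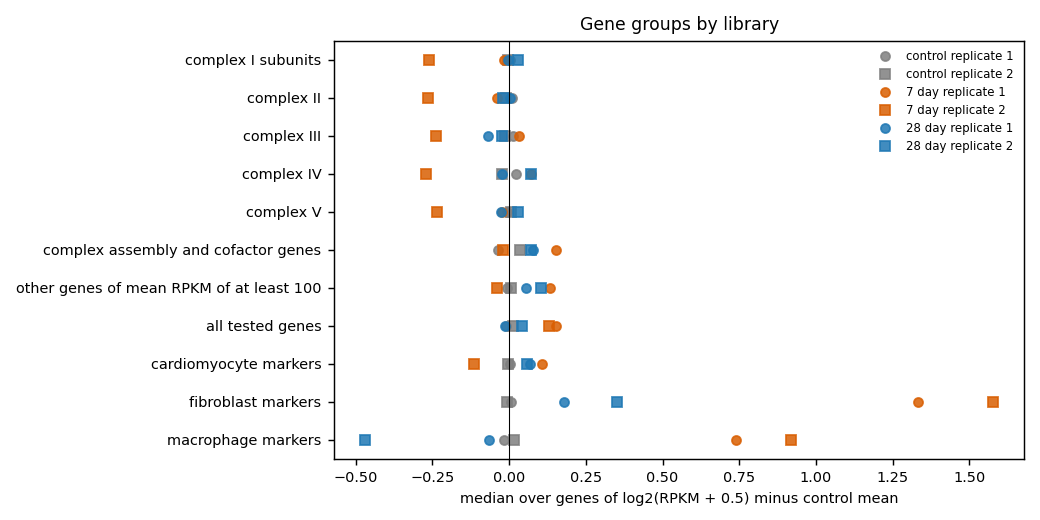
Median over the genes of each group of log2(RPKM + 0.5) minus the control mean, with 1 point for each library (circles replicate 1, squares replicate 2). Complexes I to V sit near 0 except in 7 day replicate 2, where complexes II to V lie between -0.27 and -0.24. Fibroblast and macrophage markers lie above all other groups in both 7 day libraries.

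At 28 days the respiratory subunits stood close to control, and Cox6a1 was the member that passed. It rose, 1 of 47, where 2.87% of all tested genes did. No member fell under limma, where 1.54% of all tested genes did, and before adjustment p was under 0.05 for 5 genes above control and 2 below it. The median log2 difference was 0.01 for complex II, -0.03 for complex III, 0.04 for complex IV and -0.01 for complex V, against 0.01 over all tested genes. Quantile normalization moved these to between -0.19 and -0.11. Of the 43 subunits, 10 had both 28 day values above both controls, where 28.8% of all tested genes did, and 11 had both below, where 25.8% did.

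Between 28 and 7 days no member passed under limma in either direction, where 0.406% of all tested genes were higher at 28 days and 4.26% lower. Before adjustment, p was under 0.05 for 1 gene that was higher at 28 days, Cox5b, and for none that was lower. The medians were 0.14 for complex II, 0.04 for complex III, 0.08 for complex IV and 0.10 for complex V, against -0.12 over all tested genes. Of the 43 subunits, 10 had both 28 day values above both 7 day values, where 9.12% of all tested genes did, and 2 had both below, where 41.2% did. All of these comparisons share libraries with each other.

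The spread sets what could be seen. The standard error of a subunit's log2 difference had a median of 0.12 and ranged from 0.09 to 0.28, so the median 95% interval reached 0.29 to either side. That interval included 0 for 37 of 43 subunits at 7 days, 37 at 28 days and 42 between 28 and 7 days. It lay wholly within 0.5 of 0 for 31, 33 and 36 subunits. The others include those that passed (Cox6a1, Cox8a and Cox6b2 at 7 days, and Cox6a1 at 28 days) and subunits whose interval reached past 0.5 around a difference that did not pass.

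**Figure D3:**
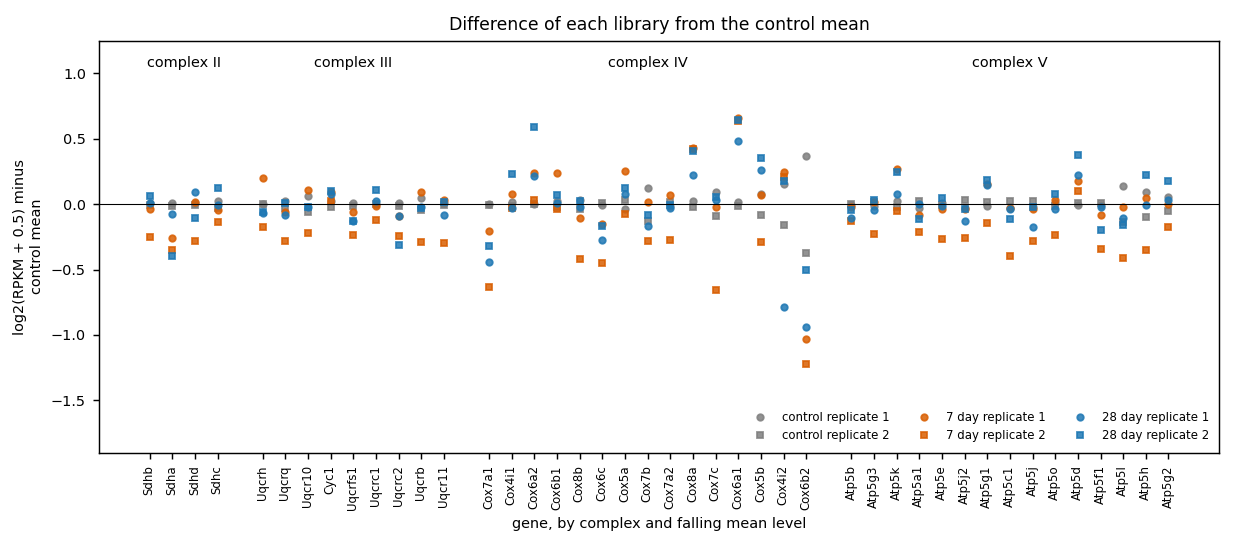
Log2(RPKM + 0.5) minus the control mean for the 43 tested subunits, by complex, with 1 point for each of the 6 libraries (circles replicate 1, squares replicate 2). Cox6a1 and Cox8a stand above 0 in all 4 angiotensin II libraries, and Cox7a1 and Cox6b2 below. So do subunits of the other complexes, such as Atp5d and Cyc1 above and Sdha, Uqcrc2 and Atp5b below. The squares of 7 day replicate 2 lie below 0 for most other genes.

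In complex II no member passed in any comparison. Sdha, the flavoprotein that holds the succinate site, was at 503 and 496 RPKM in the controls, 417 and 391 at 7 days, and 475 and 379 at 28 days. All 4 angiotensin II libraries were below both controls. The log2 difference was -0.31 at 7 days (SE 0.13, limma adjusted p = 0.143), with a 95% interval from -0.61 to -0.01, and -0.24 at 28 days (SE 0.13, limma adjusted p = 0.322). Sdhb, the iron-sulfur subunit and the most abundant of this complex, was at 691 and 682 RPKM in the controls, 669.8 and 576 at 7 days, and 690.0 and 718 at 28 days. It was below control in both 7 day libraries, by only a little in replicate 1 (log2 difference -0.14, SE 0.11, limma adjusted p = 0.407), and overlapped control at 28 days. Sdhc and Sdhd are the membrane anchors. Sdhc was at 299.7 and 289 RPKM in the controls, 285 and 268 at 7 days, and 293 and 320.1 at 28 days, with both 28 day values above both 7 day values (log2 difference 0.15, SE 0.10, limma adjusted p = 0.415). Sdhd ranged from 336 to 435 RPKM.

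Complex III likewise had no member that passed. Uqcrh, the hinge protein that helps cytochrome c dock, had the highest level, with 1133 and 1135 RPKM in the controls, 1300.5 and 1006 at 7 days, and 1082 and 1089.8 at 28 days. The 7 day libraries fell on either side of the controls (log2 difference 0.01, SE 0.14, limma adjusted p = 0.961). Uqcrc2, core protein 2, was at 552 and 543 RPKM in the controls, 515 and 463 at 7 days, and 515 and 441 at 28 days. Its 4 angiotensin II values were all below control, by -0.17 at 7 days (SE 0.12, limma adjusted p = 0.365) and -0.20 at 28 days (SE 0.12, limma adjusted p = 0.353). Uqcrfs1, the Rieske iron-sulfur protein that takes electrons from ubiquinol, was at 596 and 587 RPKM in the controls, 567 and 501 at 7 days, and 541 and 539.9 at 28 days. It too was below both controls in all 4 libraries, by -0.15 at 7 days and -0.13 at 28 days (SE 0.10 each, limma adjusted p = 0.358 and 0.495).

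Uqcrc1, core protein 1, did not share that order. It was at 553 and 552 RPKM in the controls, 546 and 507 at 7 days, and 562 and 595 at 28 days, and the 28 day values were the highest (log2 difference from 7 days 0.14, SE 0.10, limma adjusted p = 0.454). The accessory subunit Uqcrq was at 956 and 921 RPKM in the controls, 898 and 769.8 at 7 days, and 886 and 946 at 28 days. It was lower than control at 7 days (log2 difference -0.17, SE 0.11, limma adjusted p = 0.333) and overlapped control at 28 days. Of the rest, Cyc1, the cytochrome c1 that hands electrons to cytochrome c, ranged from 591 to 647 RPKM over the 6 libraries. The small accessory subunits ranged from 217 to 283 RPKM (Uqcrb), 771 to 969 (Uqcr10) and 208 to 262 (Uqcr11).

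In complex V no member passed either. Atp5b was at 2433 and 2443 RPKM in the controls, 2396 and 2231 at 7 days, and 2268 and 2369 at 28 days. It was below control in all 4 angiotensin II libraries, by -0.08 at 7 days and -0.07 at 28 days (SE 0.10 each, limma adjusted p = 0.655 and 0.719). Atp5d, the delta subunit of the central stalk, went the other way, with 387 and 391 RPKM in the controls, 440.3 and 417 at 7 days, and 455 and 505 at 28 days. All 4 angiotensin II libraries were above both controls. The log2 difference was 0.14 at 7 days (SE 0.10, limma adjusted p = 0.384) and 0.30 at 28 days (SE 0.10, limma adjusted p = 0.146), with a 95% interval at 28 days from 0.06 to 0.54.

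Subunits of the stalk and membrane parts of ATP synthase included those with the largest differences of this complex at 7 days, Atp5l and Atp5f1. Atp5f1, subunit b of the peripheral stalk, was at 282 and 285 RPKM in the controls, 267 and 224 at 7 days, and 278 and 247 at 28 days, lower in all 4 libraries (log2 difference at 7 days -0.21, SE 0.12, limma adjusted p = 0.272). Atp5h, subunit d of the same stalk, was at 189 and 165 RPKM in the controls, 182 and 139 at 7 days, and 176 and 207 at 28 days, with no pair of groups apart. Atp5l, subunit g of the membrane part, was at 300.2 and 248 RPKM in the controls, 268 and 205 at 7 days, and 253 and 244 at 28 days, and overlapped control at both times. Pseudogene copies at least 95% identical over at least 100 bases were found for these genes (2 for Atp5f1, 3 for Atp5h and 9 for Atp5l), so their levels are uncertain to the extent that reads were shared with copies.

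The c ring, which turns as protons pass, is encoded by 3 genes with the same mature protein. Atp5g3 was at 1998 and 2037 RPKM in the controls, 2038 and 1721 at 7 days, and 1959.7 and 2059 at 28 days. Atp5g1 was at 899 and 922 RPKM in the controls, 1013 and 823 at 7 days, and 1007 and 1032 at 28 days, and has 2 such pseudogene copies. Atp5g2 was at 129 and 120.1 RPKM in the controls, 125 and 110.0 at 7 days, and 127 and 141 at 28 days. Atp5g1 was above control at 28 days in both libraries (log2 difference 0.16, SE 0.12, limma adjusted p = 0.47), and the others overlapped control at both times. The RPKM ratio of Atp5g1 to Atp5g3 was 0.45 and 0.452 in the controls, 0.497 and 0.478 at 7 days, and 0.514 and 0.501 at 28 days, higher in all 4 angiotensin II libraries. The ratio of Atp5g2 to Atp5g3 stayed between 0.059 and 0.0685. The 7 subunits of ATP synthase described by neither level nor ratio here ranged from 455 to 565 RPKM (Atp5o, OSCP of the peripheral stalk) at the low end to 1508 to 1886 RPKM (Atp5k, membrane subunit e) at the high end.

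Complex IV was where the members differed from each other. Its tissue isoforms form pairs, and the liver-type genes Cox6a1, Cox7a2 and Cox8a were all expressed in these hearts below their heart-type partners Cox6a2, Cox7a1 and Cox8b. Subunits 6a, 7a and 8 are small proteins around the catalytic core. The 250 bases upstream of the start of 5 of these genes, from RefSeq on GRCm38.p6, are shown because their levels moved apart while they encode alternative versions of the same subunits. Capitals mark matches, on either strand, to the letters GCGCANGCG (part of the NRF1 consensus, a regulator of respiratory genes), CCGGAA (ETS factors, the family of GABP), TATAAA (the TATA box), CAGCTG (an E-box) and AAGGTCA (estrogen-related receptors). They lie at chr5:115348959-115349208 (Cox6a1, minus strand), chr9:79759854-79760103 (Cox7a2, minus), chr19:7217617-7217866 (Cox8a, minus), chr7:30183921-30184170 (Cox7a1, plus) and chr7:140900447-140900696 (Cox8b, minus). Each is written 5′ to 3′ on the strand of its gene, ending at the base before the start.
Cox6a1: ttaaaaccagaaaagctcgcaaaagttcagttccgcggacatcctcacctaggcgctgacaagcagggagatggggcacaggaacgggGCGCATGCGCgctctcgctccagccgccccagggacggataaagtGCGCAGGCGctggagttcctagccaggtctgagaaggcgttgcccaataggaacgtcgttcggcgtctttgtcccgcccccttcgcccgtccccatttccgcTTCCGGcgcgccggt
Cox7a2: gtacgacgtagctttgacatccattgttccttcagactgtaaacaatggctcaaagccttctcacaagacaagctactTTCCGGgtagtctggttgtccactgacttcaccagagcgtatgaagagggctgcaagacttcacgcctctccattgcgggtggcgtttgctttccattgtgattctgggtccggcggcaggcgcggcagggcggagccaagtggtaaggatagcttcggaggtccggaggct
Cox8a: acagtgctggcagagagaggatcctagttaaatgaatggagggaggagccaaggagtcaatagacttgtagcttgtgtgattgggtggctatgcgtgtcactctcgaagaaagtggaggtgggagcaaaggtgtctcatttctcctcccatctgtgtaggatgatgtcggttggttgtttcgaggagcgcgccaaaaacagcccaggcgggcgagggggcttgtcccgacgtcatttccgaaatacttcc
Cox7a1: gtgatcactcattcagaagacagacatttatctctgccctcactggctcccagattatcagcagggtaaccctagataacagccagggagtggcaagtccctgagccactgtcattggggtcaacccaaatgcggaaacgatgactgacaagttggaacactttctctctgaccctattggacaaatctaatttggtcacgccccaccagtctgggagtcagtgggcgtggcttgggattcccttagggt
Cox8b: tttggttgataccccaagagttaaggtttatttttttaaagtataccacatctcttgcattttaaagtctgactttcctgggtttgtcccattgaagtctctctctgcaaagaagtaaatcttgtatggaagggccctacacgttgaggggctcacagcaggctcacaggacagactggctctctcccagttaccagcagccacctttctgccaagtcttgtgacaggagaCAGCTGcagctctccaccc

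The Cox6a1 window held 26 CpG dinucleotides, 2 NRF1 matches and 1 ETS match. The windows of the other liver-type genes held 14 (Cox7a2, with 1 ETS match) and 11 (Cox8a, with no match), and those of the heart-type genes 4 (Cox7a1, no match) and 1 (Cox8b, with 1 E-box match). The table of promoters held 37 of the 49 genes, 34 of them subunits, and Cox6a2 was not among them. The median CpG number was 14 over the 34 subunit windows (1 to 35), 16 over the windows of tested genes and 6 over all windows. NRF1 letters were found in 7 of the 34 subunit windows (20.6%), against 11.8% of the 8764 windows of tested genes and 5.33% of all 27025 windows. ETS letters were found in 11 of 34 (32.4%), against 22.9% and 12.2%. The other letters were each found in 2 of 34 (5.88%), against 6.66% and 13.0% for the TATA box, 11.7% and 12.8% for the E-box, and 2.67% and 4.05% for estrogen-related receptors. A match is a description of letters and not a binding site, and a window without one says nothing about the factor.

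Subunit 6a showed the clearest difference. Cox6a1, its liver-type isoform, was at 93.4 and 91.3 RPKM in the controls, 146 and 144 at 7 days, and 129 and 145 at 28 days. All 4 angiotensin II libraries were well above both controls, and the 7 day libraries were nearly equal although most other subunits were lower in replicate 2. Group means were 92.4 ± 1.52 RPKM (SD, n = 2), 145 ± 1.41 and 137 ± 11.0. Cox6a1 rose 1.56-fold at 7 days (log2 difference 0.65, SE 0.10, limma adjusted p = 0.00731) and 1.48-fold at 28 days (0.56, SE 0.10, limma adjusted p = 0.0288). Leaving out either control ended both calls (limma adjusted p = 0.0761 and 0.0741 at 7 days, 0.229 and 0.19 at 28 days), and leaving out 28 day replicate 2 ended the later one (0.0687), as did testing without the filter on low values (0.0734).

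Cox6a2, the heart-type partner, was at 1597 and 1596 RPKM in the controls, 1883 and 1632 at 7 days, and 1851 and 2400.3 at 28 days. These values were above both controls in all 4 libraries, with a spread at each time that was wider than in the controls. The log2 difference was 0.13 at 7 days (SE 0.15, limma adjusted p = 0.576), which rescaling the libraries by median ratios turned to -0.02 and quantile normalization to -0.01, and 0.40 at 28 days (SE 0.15, limma adjusted p = 0.176). In RPKM the ratio of Cox6a2 to Cox6a1 was 17.1 and 17.5 in the controls, 12.9 and 11.3 at 7 days, and 14.3 and 16.6 at 28 days.

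Subunit 8 differed at 7 days. Cox8a, its liver-type isoform, was at 167 and 162 RPKM in the controls, 222 and 220.2 at 7 days, and 193 and 219 at 28 days. Both times lay above control in every library. Cox8a rose 1.34-fold at 7 days (log2 difference 0.42, SE 0.10, limma adjusted p = 0.0338). The difference at 28 days was 0.32 (SE 0.10, limma adjusted p = 0.13). Rescaling by median ratios ended the 7 day call (0.27, limma adjusted p = 0.117), as did quantile normalization (0.325, limma adjusted p = 0.0939). Leaving out any control or 7 day library also ended it, with differences from 0.401 to 0.447.

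Cox8b, the heart-type partner, was at 1637 and 1562 RPKM in the controls, 1483 and 1193 at 7 days, and 1572 and 1625 at 28 days. It was below control in both 7 day libraries and level with it at 28 days. The log2 difference was -0.27 at 7 days (SE 0.13, limma adjusted p = 0.202), and without 7 day replicate 1 it passed at -0.42 (limma adjusted p = 0.0355). The ratio of Cox8b to Cox8a was 9.79 and 9.64 in the controls, 6.68 and 5.42 at 7 days, and 8.16 and 7.43 at 28 days.

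Subunit 7a differed in its heart-type gene instead. Cox7a1, heart-type, was at 3201 and 3187 RPKM in the controls, 2771 and 2059 at 7 days, and 2346 and 2559 at 28 days. All 4 angiotensin II libraries were below both controls, and the 7 day libraries were far apart. The log2 difference was -0.42 at 7 days (SE 0.15, 95% interval -0.78 to -0.06, limma adjusted p = 0.11) and -0.38 at 28 days (SE 0.15, 95% interval -0.74 to -0.02, limma adjusted p = 0.207). It passed at 7 days with libraries rescaled by median ratios (-0.58, limma adjusted p = 0.0479) and without 7 day replicate 1 (-0.63, limma adjusted p = 0.0172). Cox7a2, liver-type, was at 472 and 483 RPKM in the controls, 502 and 396 at 7 days, and 468 and 475 at 28 days. Its 7 day values lay on either side of control, and its 28 day values overlapped control. The log2 differences were -0.10 at 7 days and -0.02 at 28 days (SE 0.13 each, limma adjusted p = 0.637 and 0.947). The ratio of Cox7a1 to Cox7a2 was 6.78 and 6.60 in the controls, 5.52 and 5.20 at 7 days, and 5.02 and 5.39 at 28 days.

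**Figure D4:**
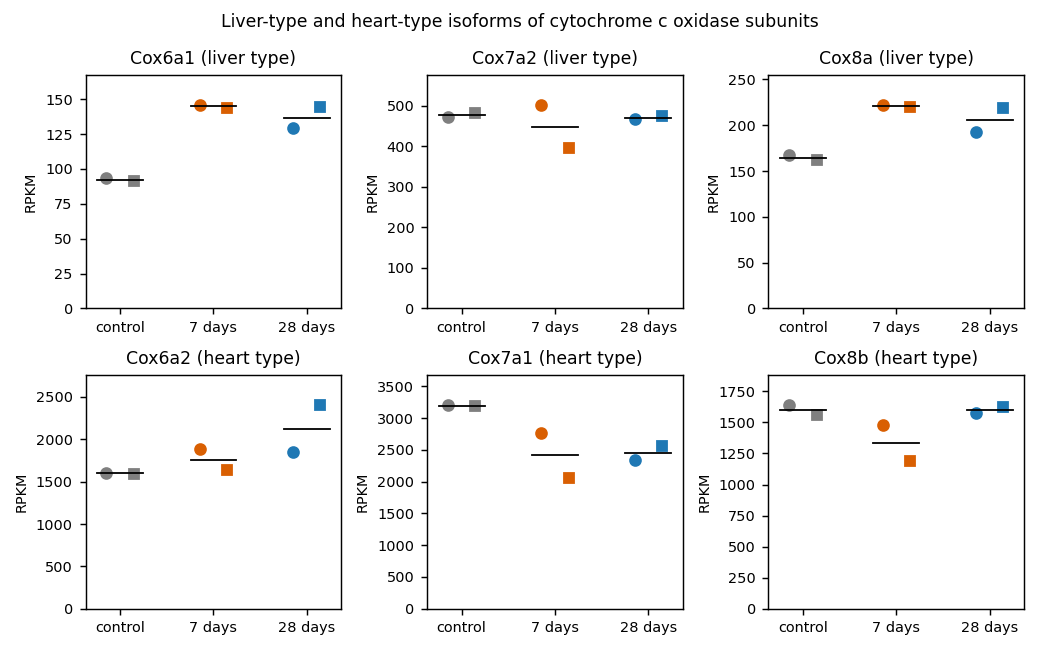
RPKM of the liver-type (top) and heart-type (bottom) isoforms of subunits 6a, 7a and 8 in each library (circles replicate 1, squares replicate 2), with horizontal lines at group means and axes from 0. Cox6a1 and Cox8a are higher in all 4 angiotensin II libraries than in both controls, Cox7a1 is lower, and Cox7a2 is not apart from control.

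A ratio within a library does not depend on a factor that scales the whole library. All 3 heart-to-liver ratios were lower in each of the 4 angiotensin II libraries than in both controls. The mean log2 ratio differed from control by -0.51 for subunit 6a, -0.32 for subunit 7a and -0.69 for subunit 8 at 7 days, and by -0.16, -0.36 and -0.32 at 28 days. Over all settings and left-out libraries these ranged from -0.60 to -0.42, -0.36 to -0.27 and -0.84 to -0.54 at 7 days, and from -0.27 to -0.06, -0.41 to -0.19 and -0.49 to -0.25 at 28 days. With 2 libraries against 2, an exact two-sided permutation test cannot go below p = 0.333, so the ratios are given as a description. The members of a pair changed unequally, which a ratio shows without saying which of them moved: for subunits 6a and 8 the liver-type gene passed the test at 7 days, and for subunit 7a neither did.

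**Figure D5:**
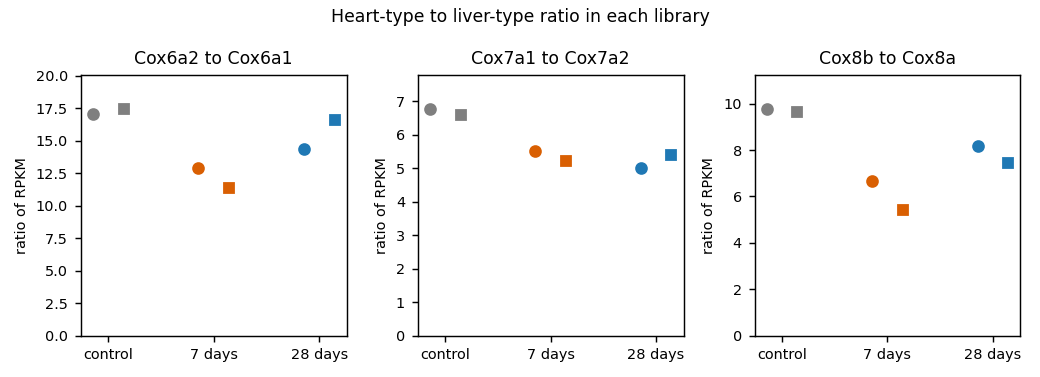
RPKM ratio of the heart-type to the liver-type isoform of subunits 6a, 7a and 8 in each library (circles replicate 1, squares replicate 2), on axes from 0. Every angiotensin II library lies below both controls, with the lowest ratios of subunits 6a and 8 at 7 days.

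Markers of other cell types moved with the 7 day rise of Cox6a1 and Cox8a. Fibroblast markers rose in 6 of 9 genes at 7 days, where 13.2% of all tested genes did. The 6 were Col1a1, Col1a2, Col3a1, Lum, Postn and Vim. The markers Dcn, Pdgfra and Tcf21 did not pass (0.32, 0.25 and 0.11, limma adjusted p = 0.222, 0.414 and 0.734). The summed level of the 9 was 520 to 532 RPKM in the controls, 1198 to 1286 at 7 days and 554 to 607 at 28 days. Macrophage markers rose in 8 of 9 genes at 7 days, with sums of 326 to 331, 552 to 609 and 210 to 295 RPKM. Endothelial markers rose in 3 of 7 genes, with sums of 166 to 174, 228 to 270 and 178 to 210 RPKM. No gene of these 3 lists was at 0 in any library. None of the 12 cardiomyocyte markers passed at 7 days, but before adjustment p was under 0.05 for 2 above control and 1 below. The 2 above were Actc1 (0.49, limma adjusted p = 0.0528) and Mybpc3 (0.34, limma adjusted p = 0.0576), and the 1 below was Pln (-0.39, limma adjusted p = 0.0563).

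At 28 days those markers stood nearer control while Cox6a1 was still higher. Postn, a matrix protein of activated fibroblasts, was the single fibroblast marker that rose, and no macrophage marker rose while Fcgr1, an Fc receptor, fell. At that time 2.87% of all tested genes rose and 1.54% fell. Of the 7 endothelial markers 1 rose, the VEGF receptor gene Kdr (log2 difference 0.67, limma adjusted p = 0.0244). Of the cardiomyocyte markers, Actc1 (cardiac actin) and Mybpc3 (cardiac myosin binding protein C) rose, by 0.67 and 0.56. The part of cell makeup in the rise of Cox6a1 and Cox8a was not tested.

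Of the remaining complex IV pairs, Cox6b2 and Cox4i2 were the members at low level in these hearts. Cox6b2, the testis isoform of subunit 6b, was at 5.66 and 3.18 RPKM in the controls, 1.83 and 1.54 at 7 days, and 1.98 and 2.85 at 28 days. All angiotensin II libraries were below both controls, and the controls lay further apart than the libraries of either other group. Cox6b2 fell by 1.12 on the log2 scale at 7 days (SE 0.26, limma adjusted p = 0.0322), and the difference at 28 days was -0.72 (SE 0.26, limma adjusted p = 0.17). The 7 day call was lost without control replicate 1 (-0.75, limma adjusted p = 0.168), without either 7 day library (0.0982 and 0.158) and without the filter on low values (0.0844). Its common partner Cox6b1 was at 1589.7 and 1543 RPKM in the controls, 1851 and 1530.1 at 7 days, and 1574 and 1644 at 28 days, and overlapped control at both times.

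Subunit 4, a larger nuclear-encoded subunit, showed no call. Cox4i1, the common isoform, was at 1911 and 1864 RPKM in the controls, 1989.5 and 1844 at 7 days, and 1845 and 2219 at 28 days, and the groups overlapped. Cox4i2, the lung isoform, was at 13.0 and 10.4 RPKM in the controls, 13.8 and 13.5 at 7 days, and 6.51 and 13.2 at 28 days. Its low 28 day value was in replicate 1 alone (log2 difference from 7 days -0.53, SE 0.28, limma adjusted p = 0.321). Without 28 day replicate 2 this difference was -1.01 and passed (limma adjusted p = 0.0225), resting on the lone low library.

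Cox5b, a zinc-binding subunit, had the largest upward difference between 28 and 7 days. It was at 123 and 109.5 RPKM in the controls, 121 and 94.9 at 7 days, and 139 and 148 at 28 days. Both 28 day libraries were above all others, and the log2 difference from 7 days was 0.42 (SE 0.14, 95% interval 0.10 to 0.74, limma adjusted p = 0.139). The other complex IV subunits were given no call: Cox5a ranged from 794 to 996 RPKM, Cox6c from 1042 to 1435, Cox7b from 437 to 581 and Cox7c from 110.4 to 186.

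The 4 genes that share a symbol without being subunits were lower in level, apart from Cox7a2l. Cox7a2l, a factor that joins complexes III and IV into supercomplexes, was at 176 and 188 RPKM in the controls, 211 and 192 at 7 days, and 185 and 194 at 28 days, above control at 7 days by 0.14 (SE 0.10, limma adjusted p = 0.365). Cox4nb, a member of the endoplasmic reticulum membrane complex, was at 2.97 and 2.92 RPKM in the controls, 3.82 and 4.13 at 7 days, and 3.77 and 3.85 at 28 days. It was above control in all 4 libraries without passing (0.37, SE 0.12, limma adjusted p = 0.0737 at 7 days, and 0.32, SE 0.12, limma adjusted p = 0.17 at 28 days). Atp5s, coupling factor B, was at 13.3 and 11.6 RPKM in the controls, 11.5 and 9.68 at 7 days, and 11.2 and 11.3 at 28 days. Atp5sl, an assembly factor of the distal arm of complex I, was at 12.5 and 13.0 RPKM in the controls, 15.2 and 13.0 at 7 days, and 14.0 and 16.9 at 28 days. Neither passed in any comparison.

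Genes that build these complexes or control their expression gave few calls. Of 40 tested assembly and cofactor genes, 1 rose at 7 days, where 13.2% of all tested genes did, and 1 rose at 28 days, where 2.87% did. None fell, where 2.27% and 1.54% of all tested genes did, with medians of 0.05 and 0.04. That gene was Cox19, a factor of copper delivery to cytochrome c oxidase, at 28.9 and 32.8 RPKM in the controls, 53.0 and 46.7 at 7 days, and 43.5 and 49.8 at 28 days. Its log2 difference was 0.68 at 7 days (SE 0.12, limma adjusted p = 0.0137) and 0.59 at 28 days (limma adjusted p = 0.046). The controls stood below all 4 angiotensin II libraries, and the 7 and 28 day values overlapped. Before adjustment, p was under 0.05 for 3 genes of the list above control and 0 below at 7 days, and for 4 and 0 at 28 days.

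Of 16 regulators of mitochondrial biogenesis, 1 rose and 1 fell at 7 days, where 13.2% and 2.27% of all tested genes did. At 28 days none passed under limma, where 2.87% of all tested genes rose and 1.54% fell (before adjustment, p was under 0.05 for 2 above control and 0 below). Pprc1, a coactivator related to Ppargc1a, was at 2.08 and 2.15 RPKM in the controls, 3.44 and 3.85 at 7 days, and 3.25 and 3.24 at 28 days, and rose at 7 days by 0.66 (limma adjusted p = 0.0162). Ppargc1a, the coactivator best known for driving mitochondrial gene expression, was at 18.1 and 18.9 RPKM in the controls, 13.3 and 11.3 at 7 days, and 19.1 and 14.8 at 28 days, below control in both 7 day libraries, and was the regulator that fell (-0.57, limma adjusted p = 0.0413). Nrf1, whose product binds many respiratory promoters, was at 2.61 and 2.64 RPKM in the controls, 3.35 and 3.44 at 7 days, and 2.80 and 3.05 at 28 days (0.32 at 7 days, limma adjusted p = 0.123). Tfam, which packages and transcribes mitochondrial DNA, was at 9.56 and 9.74 RPKM in the controls, 10.7 and 8.76 at 7 days, and 10.1 and 9.12 at 28 days, on either side of control. Among 37 tested complex I subunits, 1 fell at 7 days (Ndufs1, -0.45, limma adjusted p = 0.049), where 2.27% of all tested genes did, and none passed at 28 days (before adjustment, p was under 0.05 for 5 above control and 1 below).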

How the data were processed

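RNA-seq libraries of mouse heart (6, with 2 in each of 3 groups) were compared. The authors deposited RPKM values, per the file headers, for 22556 genes, and read counts were not used here. As tools, the submitters' processing notes list DESeq2, HTSeq, Bowtie 0.12.9 and TopHat2 2.0.12. They list mm8 and mm9 as builds and give no role for either. Whether strand was used in counting, and how reads matching several genes were treated, is not given in the sources used here. Total reads per library are unknown. From the steps between low RPKM values, depth relative to control replicate 1 was 0.889 to 1.16 in the other libraries, and 15636 to 16036 genes were above 0 in each.

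Log2(RPKM + 0.5) of the 11096 genes with a mean of at least 1 RPKM was fitted with limma 3.58.1 in R 4.3.3 (group means over all 6 libraries, moderated variances with a mean-variance trend, 3 residual and 4.21 prior degrees of freedom). P-values were two-sided and adjusted by Benjamini-Hochberg over all tested genes, with a threshold of 0.05. The fit was tested on simulated data. Medians over members, ratios of isoforms and counts of libraries are descriptions. The members and the gene lists were chosen with earlier results of these data known.

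Values in each library are given for members that passed, for isoform pairs, for the highest member of each complex and the 2 with the largest differences in each comparison, and for members that are no subunit or were too low to test. Of the lists, genes that passed are named, with Ppargc1a, Nrf1 and Tfam. The exceptions, chosen after values were seen, are the range of other members, the marker genes Myh6 and Tnnt2 and the genes that passed under an alternative only.

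Alternatives were pseudocounts of 0.1 and 2, no filter, a mean of at least 5 RPKM, rescaling by median ratios, quantile normalization, no trend, a fit of the compared groups alone, a replicate block and leaving out each library. Leaving a library out of the isoform ratios was added after the data were seen. Pseudogene copies and transcript lengths came from the GENCODE annotation and BLAST 2.17.0, and upstream sequences from RefSeq on GRCm38.p6.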

Additional observations from a re-analysis of the deposited data

How the results depend on the processing

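No difference reversed its sign as a call under any alternative. Of the members, 2 rose at 7 days: 1 did so with no filter on low values, with median ratio scaling, with quantile normalization, with no trend and with the replicate block, and 0 to 2 when a library was left out. The 1 that fell at 7 days became 0 with no filter, 0 at a mean of at least 5 RPKM, 2 with median ratio scaling (Cox6b2 and Cox7a1), 3 with quantile normalization (Atp5j, Cox6b2 and Cox6c), and 0 to 4 with a library left out. The 4 were Cox6c, Cox7a1, Cox7c and Cox8b, without 7 day replicate 1. The 1 that rose at 28 days became 0 with no filter, no trend and the replicate block, and 0 to 1 with a library left out. Between 28 and 7 days the count that fell ranged from 0 to 1, the 1 being Cox4i2 without 28 day replicate 2. For Cox8a the call at 7 days ended with median ratio scaling and quantile normalization. It also ended with no filter (limma adjusted p = 0.055), no trend (0.0556) and the replicate block (0.0547). For Cox6a1 the call at 28 days ended with no trend (limma adjusted p = 0.0512) and the replicate block (0.0505). The cause of these changes was not tested.

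By complex, the median at 7 days was -0.30 for complex II with median ratio scaling and with quantile normalization, -0.26 for complex III and -0.30 for complex V with median ratio scaling. At 28 days median ratio scaling gave -0.00091 for complex II, and quantile normalization gave -0.19, -0.17, -0.11 and -0.17 for complexes II to V. Between 28 and 7 days median ratio scaling gave 0.28, 0.18 and 0.24 for complexes II, III and V. With a library left out, the medians of complexes II, III, IV and V ranged at 7 days from -0.27 to -0.040, from -0.24 to 0.033, from -0.27 to 0.07 and from -0.24 to -0.023. At 28 days they ranged from -0.020 to 0.023, from -0.068 to -0.0085, from -0.025 to 0.070 and from -0.026 to 0.030. Between 28 and 7 days they ranged from 0.05 to 0.23, from -0.070 to 0.19, from -0.09 to 0.23 and from -0.020 to 0.23.

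Libraries with the same replicate number did not deviate together: the correlations of their deviations over 11096 genes were 0.149, -0.0193 and -0.0139, so the numbers were not taken as pairs. With the replicate block 1280 genes rose and 216 fell at 7 days over all tested genes, against 1461 and 252 without it, and 249 rose and 110 fell at 28 days, against 318 and 171. With 2 libraries a group and unknown total reads, small differences of a subunit were mostly not detectable. The median 95% interval, which is not adjusted, reached 0.29 to either side, and some larger differences did not pass. Among these were Cox7a1 at 7 days (-0.42, limma adjusted p = 0.11) and Cox5b between 28 and 7 days (0.42, limma adjusted p = 0.139). The smallest difference that passed was that of Cox8a at 7 days (0.42, limma adjusted p = 0.0338).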

Other observations

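The distance between the 7 day libraries was not the same for all subunits. Cox6a1 and Cox8a differed between 7 day replicates 1 and 2 by -0.02 and -0.01 on the log2 scale, against -0.63 for Cox7c, -0.43 for Cox7a1 and a median of -0.24 over the 43 subunits. Both passed at 7 days under a test that favours genes whose replicates lie close, so this closeness is not a separate result. The transcripts of Cox6a1 and Cox8a are short (571 and 550 bases, the median of the coding transcripts in GENCODE). By this length the median difference was -0.31 for the 17 subunits under 600 bases and -0.24 for the 15 from 600 to 1000 bases. It was -0.22 for the 9 from 1000 to 2000 bases and -0.22 for the 2 from 2000 to 4000 bases. A median over coding transcripts need not be the length of the transcript made in heart. It was 533 bases for Uqcrc1 and 2675.5 for Atp5g1, so the classes are rough. Other genes with a mean of at least 100 RPKM stood at -0.21 (57 genes), -0.17 (125), -0.16 (121) and -0.08 (66) in the same length classes.

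Pseudogene copies at least 95% identical over at least 100 bases were found for 13 of the 49 genes, 12 of them tested subunits. These 12 had a median level of 384 RPKM and differed between the 7 day libraries by a median of -0.33, and the 31 subunits without a copy had a median of 671 RPKM and -0.21. Cox6a1, Cox8a, Cox7a1, Cox7a2, Cox6a2 and Cox8b were among those without a copy.

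Markers of further tissues were also counted, with 13.2% of all tested genes higher and 2.27% lower at 7 days, and 2.87% and 1.54% at 28 days. At 7 days 2 of 10 smooth muscle and pericyte markers rose and 1 fell, and 1 of 4 tested red blood cell and 1 of 4 tested adipocyte markers rose. None of 3 tested skeletal muscle or 4 tested atrial markers passed (0 of either list at an unadjusted p under 0.05). The red blood cell marker was Hbb-b2, at 0 and 0.000606 RPKM in the controls, 14.1 and 4.25 at 7 days, and 0.0281 and 0 at 28 days. Beta-s, the most abundant of that list, overlapped control, with 478 and 118 RPKM in the controls and 360 and 264 at 7 days. At 28 days 1 of the 4 adipocyte markers rose and no gene of the other 4 lists passed under limma (at an unadjusted p under 0.05, 3 smooth muscle and pericyte markers were lower, 1 skeletal muscle marker was higher and 1 lower, and 1 atrial marker was higher). Libraries of a group stood far apart in some of these lists, so the counts do not show like tissue content. Relative to the control mean, the median of the 4 tested atrial markers was -1.86 in control replicate 1 and 1.86 in control replicate 2, -1.69 and -1.35 at 7 days, and 1.07 and 0.13 at 28 days. Myl7, an atrial myosin light chain, was at 52.5 and 646 RPKM in the controls. The median of the 4 tested adipocyte markers was 2.54 in 28 day replicate 1 and -0.37 in 28 day replicate 2.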
